A study of Homo sapiens with 4 samples.

Results

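The 10 genes described here encode enzymes of the oxidative stress response and were chosen by symbol from the 53826 entities that each of the 4 deposited tables lists. NQO1, GCLM, GCLC, HMOX1, TXNRD1 and SRXN1 are textbook targets of the transcription factor NRF2, and AKR1C1, AKR1C2, AKR1C3 and AKR1B10 are aldo-keto reductases, which reduce aldehydes and ketones with NADPH. All 10 genes were found in all 4 tables. They were chosen with earlier results of these data known. Every library came from PK-1, an established human cell line of well-differentiated pancreatic ductal adenocarcinoma. Stable SPRR1A cells carried FLAG-tagged SPRR1A on the retroviral vector pMXs, and stable DsRed cells carried the red fluorescent protein DsRed on the same vector as their control. Transient SPRR1A cells were transfected with a pCAG plasmid for FLAG-tagged SPRR1A, and transient GFP cells with pCAG for green fluorescent protein. SPRR1A encodes a small proline-rich protein of the cornified envelope of squamous epithelium. Each condition had 1 library, so differences could not be set against a spread between replicates and have no p-value. Stable and transient cells differed in vector, control reporter, way of gene transfer and culture history, and these cannot be told apart.

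NRF2, the product of NFE2L2, is bound by KEAP1 in unstressed cells and directed to degradation. Oxidants and electrophiles modify KEAP1, and NRF2 then accumulates, pairs with small MAF proteins and binds antioxidant response elements near its target genes, while BACH1 competes for the same elements. The targets detoxify quinones, make glutathione and NADPH, reduce thioredoxin and break down heme. Aldo-keto reductases of the 1C group also interconvert steroid hormones and are known NRF2 targets in human cells.

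All 10 genes had higher values in both transient libraries than in both stable libraries. The same order was found for 30.2% of the 9658 entities with a TPM of 5 or more in all 4 libraries. AKR1B10 was below that level in some libraries. The widest gap was that of AKR1C1, whose level was 4.44-fold higher in transient GFP than in stable DsRed cells and 4.63-fold higher in SPRR1A cells of the transient than of the stable model. HMOX1 was 2.25-fold and 2.53-fold higher in the same comparisons, and AKR1C2 was 1.67-fold and 2.0-fold higher. Between SPRR1A cells and their own control, 0 of the 10 genes differed by more than 2-fold in the stable or in the transient model.

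The values are log2 TPM, where TPM corrects for transcript length and for the library total, so that levels can be set side by side between genes. The deposited values end at a floor of 0. A gene listed there may have a TPM of 1 or lower, or its estimate may have failed. GPX1, which most cells express, was at 0 in all 4 libraries, so absence cannot be read from a 0. The depth of the libraries in reads is unknown, and between 12964 and 13558 entities lay above the floor. SPRR1A itself was at a log2 TPM of 10.93 in SPRR1A and 0.75 in DsRed cells of the stable model, and 16.60 in SPRR1A and 3.56 in GFP cells of the transient model, so that in each model the library labelled SPRR1A was the higher. SPRR1A took 9.9% of the total TPM in transient SPRR1A cells and 0.196% in stable SPRR1A cells. All 7 ductal epithelial markers were above the floor in at least 1 library, with EPCAM between 8.88 and 9.16 and MUC1 the lowest, between 0 and 0.90. Markers of other cells were at 0 in all libraries for 5 of 6 fibroblast, 4 of 5 leukocyte, 3 of 3 endothelial, 3 of 4 acinar and 3 of 3 islet genes. In bulk RNA, fewer cells of a type and less RNA per cell cannot be told apart.

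AKR1C1, AKR1C2 and AKR1C3 are near copies, so their sequences bear on how far the values of each gene can be read alone. They lie within 144272 bases of chromosome 10 in GRCh38, AKR1C1 from 4963415 to 4983283, AKR1C2 from 4987775 to 5018000 and AKR1C3 from 5048781 to 5107686. Their coding sequences in GENCODE 44 are each 972 bases long. AKR1C1 and AKR1C2 were identical at 98.0% of positions, with 19 differences, AKR1C1 and AKR1C3 at 91.5%, with 83, and AKR1C2 and AKR1C3 at 91.0%, with 87. The stretch of 120 coding bases with the most differences between AKR1C1 and AKR1C2 runs from base 43 to base 162 of each coding sequence. It was chosen without regard to AKR1C3. The stretch is shown because reads over such differences can be told apart between the genes. Only the coding sequences were compared, not the rest of the transcripts. Capitals mark the bases that differ from AKR1C1.
AKR1C1: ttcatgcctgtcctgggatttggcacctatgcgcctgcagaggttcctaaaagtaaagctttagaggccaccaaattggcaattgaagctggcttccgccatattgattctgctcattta
AKR1C2: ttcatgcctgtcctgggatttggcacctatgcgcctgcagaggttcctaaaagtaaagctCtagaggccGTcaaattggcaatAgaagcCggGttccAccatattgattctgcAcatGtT
AKR1C3: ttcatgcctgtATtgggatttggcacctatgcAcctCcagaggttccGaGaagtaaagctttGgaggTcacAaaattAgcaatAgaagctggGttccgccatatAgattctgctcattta
In this stretch AKR1C2 had 10 and AKR1C3 had 13 bases that differ from AKR1C1. Elsewhere AKR1C1 and AKR1C2 shared an identical run of 189 coding bases. Of all 100-base windows of the coding sequence, 21.0% in AKR1C1, 26.7% in AKR1C2 and 9.74% in AKR1C3 were found exactly in transcripts of another gene of the family. How the authors' software divided reads shared by several genes is not given in the sources used here, so the split between these 3 genes is uncertain.

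The promoters compared here for AKR1C1 and AKR1C2 are near copies as well. They are shown because the expression of these neighbours differed by model to unequal degrees. In the RefSeq promoter table (GRCh38.p14), the 250 bases before the start sites of AKR1C1 and AKR1C2 held a shared run of 245 bases, which ended 1 base before the start of AKR1C1 and 5 bases before that of AKR1C2. At the upstream start site of AKR1C3 (promoter at chr10:5048531-5048830), the longest run shared with either gene was 12 bases. The promoter at the downstream start site of AKR1C3 was not compared. The AKR1C2 start site used lies inside the annotated span of that gene, which reaches 5018000 at its upstream end. Sequence at that end was not compared. The last 100 bases before each start site follow, with the 95 bases that both windows show of the shared run in capitals, for AKR1C1 at chr10:4963315-4963414 on the plus strand and for AKR1C2 at chr10:5003858-5003957 on the minus strand.
AKR1C1: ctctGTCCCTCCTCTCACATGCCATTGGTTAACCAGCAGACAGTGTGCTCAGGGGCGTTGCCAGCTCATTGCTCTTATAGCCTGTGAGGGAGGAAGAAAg
AKR1C2: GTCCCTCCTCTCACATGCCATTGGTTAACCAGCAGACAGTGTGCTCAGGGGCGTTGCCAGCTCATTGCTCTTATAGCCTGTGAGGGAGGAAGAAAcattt

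The core of the antioxidant response element, TGACNNNGC, was searched on both strands of the RefSeq promoters, which run from 250 bases before to 50 bases after each start site. The table held promoters of 8 of the 10 genes, without HMOX1 and AKR1B10. The motif was present for GCLM and TXNRD1, 2 of 8 genes, and for 16.1% of all 27305 genes of the table. It was present for 0 of the 3 aldo-keto reductases in the table and 11 of 25 further NRF2 targets (44%). The motif was also found for 3 of 9 NRF2 regulators (33.3%) and 3 of 5 metallothioneins (60%). Lists nearer to or below the share of all genes were other redox enzymes (2 of 20) and other aldo-keto reductases (1 of 7). Heat shock chaperones (2 of 12) and genes of the unfolded protein and integrated stress responses (2 of 12) were likewise near it. Among cell-type markers, 1 of 3 leukocyte genes had the motif, and 0 of the ductal, fibroblast, acinar and islet genes. The windows below are shown as examples of matches to the motif, which is in capitals. The GCLM window is chr1:93909445-93909475 on the plus strand. The windows for 2 start sites of TXNRD1 are chr12:104215669-104215699 on the plus strand and chr12:104286919-104286949 on the minus strand. Whether NRF2 acts at these sites was not tested. Another TXNRD1 motif, from -8 to 0 at the upstream start site, is not shown.
GCLM: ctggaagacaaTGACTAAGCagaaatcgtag
TXNRD1, upstream start site: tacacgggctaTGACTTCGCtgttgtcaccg
TXNRD1, downstream start site: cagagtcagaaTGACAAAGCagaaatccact
The GCLM motif lay from -34 to -26 relative to its start site, and the TXNRD1 motifs shown lay from -99 to -91 and from -102 to -94. The GCLM window and the window at the downstream TXNRD1 start shared the 11-base run AAGCAGAAATC. A match is a description of letters, not evidence of binding, and binding was not measured here. Sequence outside the promoters was not searched, so a gene without a match may still have an element elsewhere.

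NQO1 and TXNRD1 had the highest levels of the 10 genes. NQO1, on chromosome 16 from 69709401 to 69726560, reduces quinones to hydroquinones. Its log2 TPM was 8.72 in SPRR1A and 8.53 in DsRed cells of the stable model, and 8.89 in SPRR1A and 9.03 in GFP cells of the transient model, which is a TPM between 370 and 524. The transient values were the higher ones, by 0.50 for the controls and by 0.16 for SPRR1A cells, both under 1.5-fold. TXNRD1, on chromosome 12 from 104215779 to 104350307, keeps thioredoxin reduced. Its log2 TPM was 8.08 in SPRR1A and 8.05 in DsRed cells of the stable model, and 8.38 in SPRR1A and 8.56 in GFP cells of the transient model. The log2 differences between transient and stable cells were 0.51 for the controls and 0.30 for SPRR1A cells. SRXN1, on chromosome 20 from 646615 to 653200, encodes sulfiredoxin, which restores overoxidised peroxiredoxins. Its log2 TPM was 5.58 in SPRR1A and 5.49 in DsRed cells of the stable model, and 5.82 in SPRR1A and 5.98 in GFP cells of the transient model. NQO1, TXNRD1 and SRXN1 had the narrowest ranges of the 10 genes over the 4 libraries, at 0.50, 0.51 and 0.49. NQO1, TXNRD1 and GCLC overlap annotated antisense genes, and how strand was used in counting is not given in the sources used here.

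GCLC and GCLM encode the catalytic and the modifier subunit of glutamate-cysteine ligase, the rate-limiting enzyme of glutathione synthesis. GCLC, on chromosome 6 from 53497341 to 53545101, had a log2 TPM of 5.0 in SPRR1A and 5.02 in DsRed cells of the stable model, and 5.74 in SPRR1A and 5.97 in GFP cells of the transient model. GCLM, on chromosome 1 from 93885199 to 93909430, had a log2 TPM of 4.29 in SPRR1A and 4.19 in DsRed cells of the stable model, and 4.72 in SPRR1A and 5.02 in GFP cells of the transient model. Both subunits were lowest in the stable libraries, and the order of the 2 stable libraries differed between them. Transient GFP was above stable DsRed by 1.93-fold for GCLC and 1.77-fold for GCLM, and transient SPRR1A was above stable SPRR1A by 1.67-fold for GCLC and 1.35-fold for GCLM. The catalytic subunit had the higher level in each library, with a TPM of 32.0 to 62.8 against 18.3 to 32.4 for the modifier subunit.

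HMOX1, on chromosome 22 from 35381096 to 35394207, encodes heme oxygenase, which opens the heme ring and releases iron, biliverdin and carbon monoxide. Its log2 TPM was 3.98 in SPRR1A and 4.39 in DsRed cells of the stable model, and 5.33 in SPRR1A and 5.56 in GFP cells of the transient model. HMOX1 was the only 1 of the 6 NRF2 target enzymes past 2-fold between transient and stable cells, with log2 differences of 1.17 for the controls and 1.34 for SPRR1A cells. It was also the gene with the lowest difference in the stable model, where the SPRR1A library was at a TPM of 15.8 and the DsRed library at 21.0, a log2 difference of -0.41.

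AKR1C1 had the widest range of the 10 genes over the 4 libraries, at 2.24 on the log2 scale. Its log2 TPM was 4.11 in SPRR1A and 4.20 in DsRed cells of the stable model, and 6.32 in SPRR1A and 6.36 in GFP cells of the transient model. The libraries of each model lay within 0.09 of each other, and the models lay 2.15 apart for the controls and 2.21 apart for SPRR1A cells. Among well expressed entities, those whose TPM was 5 or more in both libraries compared, AKR1C1 had the 17th highest difference of 9810 for the controls and the 11th highest of 9843 for SPRR1A cells.

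AKR1C2 had a log2 TPM of 4.50 in SPRR1A and 4.88 in DsRed cells of the stable model, and 5.50 in SPRR1A and 5.62 in GFP cells of the transient model. Its difference between the models was 0.74 for the controls and 1.0 for SPRR1A cells, so that the latter stood at the threshold of 2-fold, and fell below it, to 0.97, with 1 added to each TPM. AKR1C3, which also makes testosterone and prostaglandin F, had a log2 TPM of 6.34 in SPRR1A and 6.48 in DsRed cells of the stable model, and 7.11 in SPRR1A and 7.19 in GFP cells of the transient model. It had the highest level of the 4 reductases in each library, and its differences between the models were 0.71 and 0.77. AKR1B10, on chromosome 7 from 134527567 to 134541412, reduces retinal and lipid aldehydes. Its log2 TPM was 1.11 in SPRR1A and 1.47 in DsRed cells of the stable model, and 1.91 in SPRR1A and 2.33 in GFP cells of the transient model. This was the lowest level of the 10 genes, and AKR1B10 was the only member under a TPM of 5 in some libraries.

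**Figure D1:**
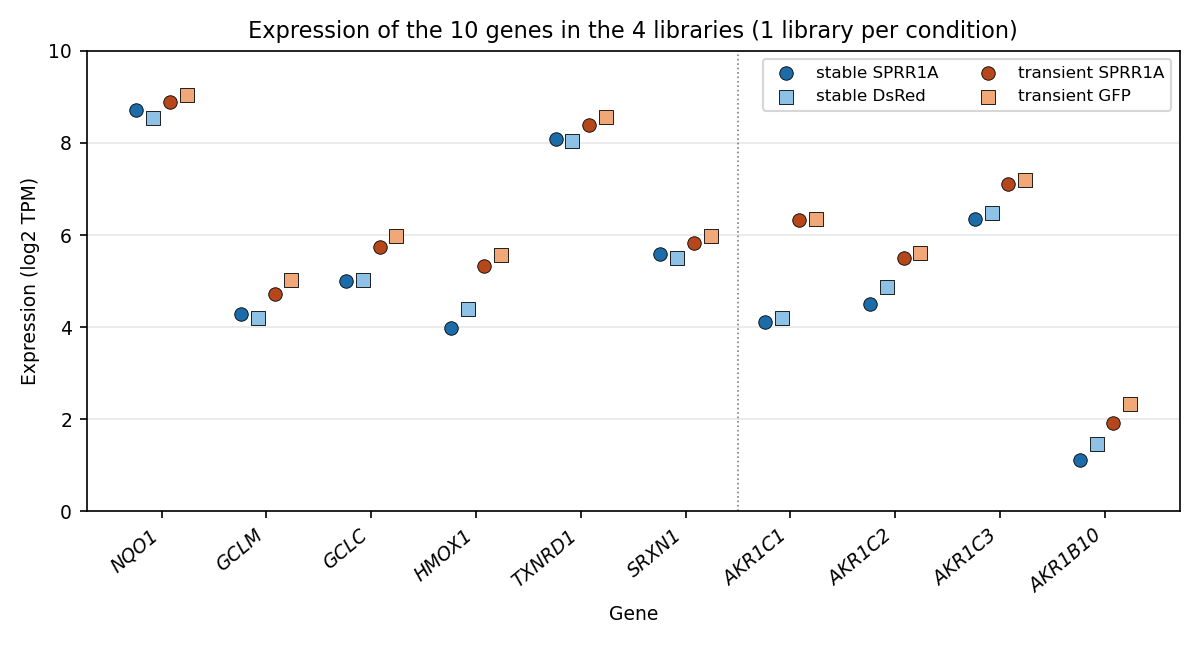
Expression of the 10 genes as log2 TPM on the vertical axis, with 1 point per library, circles for SPRR1A cells and squares for control cells, in blue for stable and in orange for transient cells. For each gene both orange points lie above both blue points, with the widest gap at AKR1C1 (4.11 and 4.20 against 6.32 and 6.36).

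Since reads may be split between near copies, the TPM of AKR1C1, AKR1C2 and AKR1C3 was also summed. The sum was 121 in SPRR1A and 137 in DsRed cells of the stable model, and 264 in SPRR1A and 277 in GFP cells of the transient model. The summed level was 2.02-fold higher in transient GFP than in stable DsRed cells and 2.18-fold higher in SPRR1A cells of the transient than of the stable model. AKR1C1 held 14.3% and 13.5% of the sum in the stable libraries and 30.4% and 29.6% in the transient libraries, in each case SPRR1A cells before control. The share of AKR1C3 was 67.0% and 65.1% in the stable and 52.5% and 52.6% in the transient libraries, and that of AKR1C2 lay between 17.2% and 21.4%. Both the sum and the shares depend on how reads were divided, since TPM divides reads by length and the MANE Select transcripts are 6543 (AKR1C1), 3215 (AKR1C2) and 1186 (AKR1C3) bases long.

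**Figure D2:**
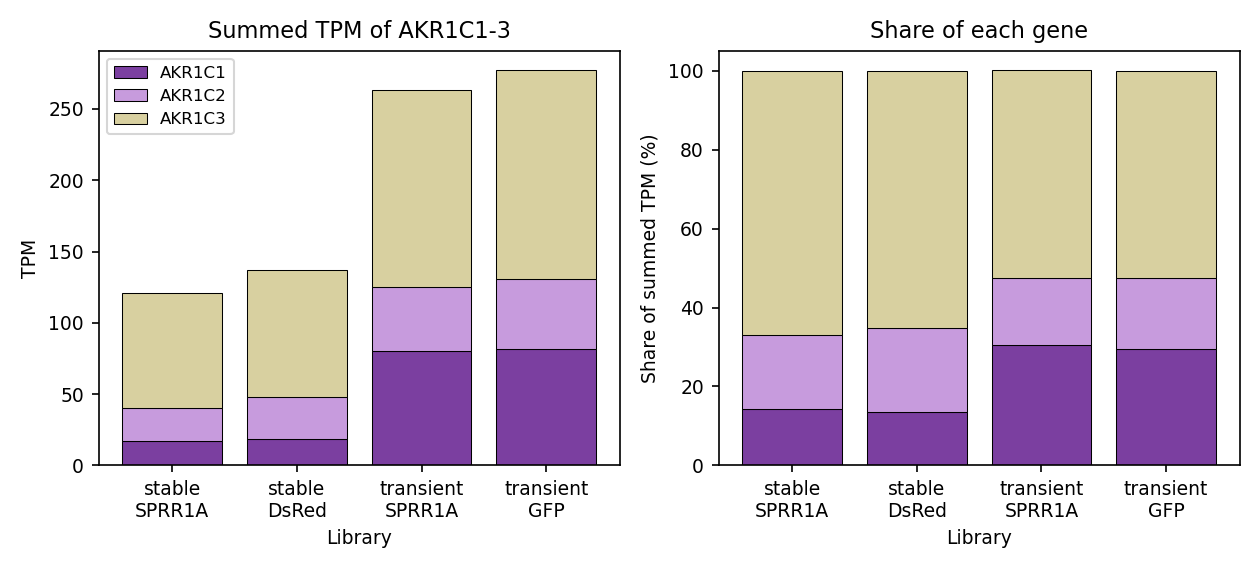
Stacked bars of AKR1C1, AKR1C2 and AKR1C3 in the 4 libraries, as summed TPM in the left panel and as each gene's percent of that sum in the right panel. The sum is 121 and 137 in the stable and 264 and 277 in the transient libraries, and the AKR1C1 part is 13.5% to 14.3% in the stable and 29.6% to 30.4% in the transient libraries.

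The comparison of SPRR1A cells with their own control asks whether SPRR1A expression goes with a different level of these enzymes. In the stable model, 4 genes were higher and 6 lower in SPRR1A cells, the median log2 difference was -0.06 beside 0.06 for well expressed entities, and 0 of 10 passed 2-fold, against 0.947% of the 13310 entities above the floor in either library. At 1.5-fold, a threshold added after the data were seen, 0 of the 9 well expressed genes passed, against 0.59% of well expressed entities. HMOX1 (-0.41), AKR1C2 (-0.37) and AKR1B10 (-0.36) were below the central 95% of the differences of well expressed entities, which ran from -0.27 to 0.41. AKR1B10 itself was under that level, at a TPM of 2.16 in SPRR1A and 2.78 in DsRed cells. All 4 aldo-keto reductases were lower in stable SPRR1A than in stable DsRed cells, with differences from -0.37 to -0.09. The share of all entities that were lower in this comparison was not counted. AKR1C1, AKR1C2 and AKR1C3 may also share reads, so the 4 values are not separate observations.

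In the transient model, all 10 genes were lower in SPRR1A than in GFP cells, with differences from -0.42 for AKR1B10 to -0.03 for AKR1C1 and a median of -0.17. The same direction was found in 94.1% of well expressed entities, whose median was -0.18, beside the 9.9% of the total that SPRR1A took up in that library. With each difference measured from that median, 6 genes were higher and 4 lower, and the median of the 10 was 0.01. None passed 2-fold, against 0.889% of the 13717 entities above the floor in either library, and 0 of 9 passed 1.5-fold, against 0.591%. No member lay outside the central 95%, which ran from -0.43 to 0.07.

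The comparisons between the models set transient GFP against stable DsRed, and transient SPRR1A against stable SPRR1A, and share no library. For the controls, all 10 genes were higher in transient GFP cells, with a median log2 difference of 0.78 and a range from 0.49 to 2.15. Of the 9 well expressed genes, 9 were higher, against 63.8% of the 9810 such entities, 6 were more than 1.5-fold higher, against 13.5%, and 2 were more than 2-fold higher, against 3.21%. The entities had a median of 0.12 and a central 95% from -0.54 to 1.08, which only AKR1C1 and HMOX1 exceeded. The genes and lists were chosen with earlier results of these data known. The shares set beside them, here and below, are therefore a description and not a test.

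For SPRR1A cells, all 10 genes were higher in transient cells, with a median of 0.75 and a range from 0.16 to 2.21. Of the 9 genes at the same minimum, 9 were higher, against 35.0% of the 9843 entities, 5 were more than 1.5-fold higher, against 3.94%, and 3 were more than 2-fold higher, against 1.12%. These 3 were AKR1C1, HMOX1 and AKR1C2, and they were 11th, 47th and 110th from the top of the entities. The entities had a median of -0.11 and a central 95% from -0.65 to 0.74, which AKR1C1, HMOX1, AKR1C2, AKR1B10 and AKR1C3 exceeded, AKR1B10 at a TPM under 5. With the differences measured from the median of the entities, the median of the 10 genes was 0.66 for the controls and 0.87 for SPRR1A cells, and all 10 stayed higher in both comparisons. Over the 4 libraries, 30.2% of the 9658 entities at a TPM of 5 or more throughout had both transient values above both stable values, as all 10 genes did, AKR1B10 without reaching that minimum throughout.

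**Figure D3:**
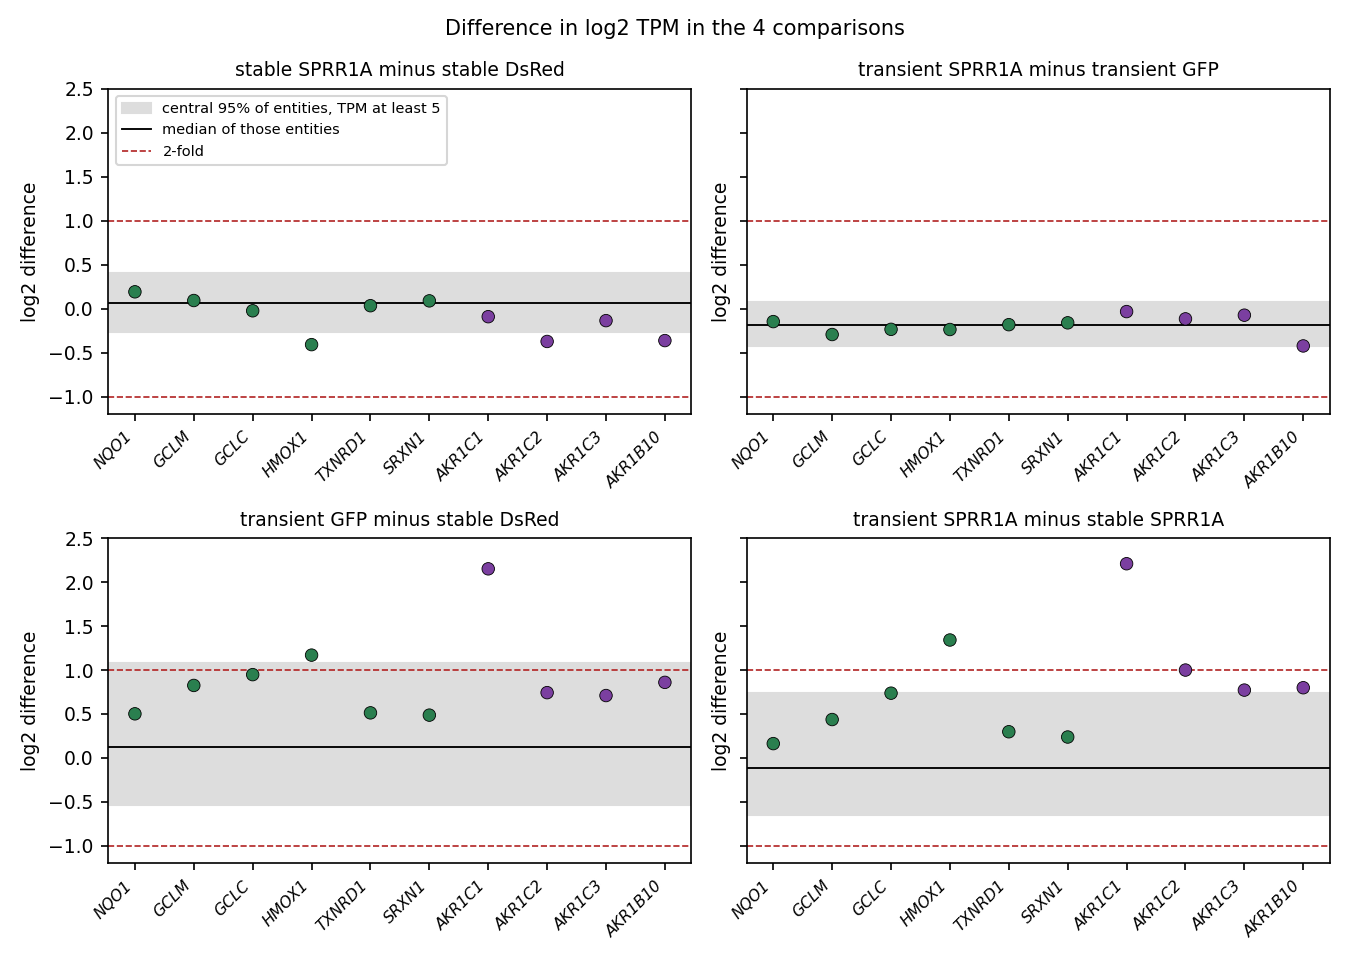
Difference in log2 TPM of each of the 10 genes in the 4 comparisons, 1 panel each, with the median (line) and the central 95% (grey band) of well expressed entities (TPM 5 or more in both libraries) and dashed lines at 2-fold. The points lie within -0.42 and 0.19 in the panels of SPRR1A against control and between 0.16 and 2.21 in the panels of transient against stable cells, where AKR1C1 and HMOX1 stand above the upper dashed line in both and AKR1C2 on it for SPRR1A cells.

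The classes were also summarised apart. The 6 NRF2 target enzymes had a median difference of 0.67 for the controls and 0.37 for SPRR1A cells, and the 4 aldo-keto reductases of 0.80 and 0.90. All 4 reductases passed 1.5-fold in both comparisons, whereas 3 of the 6 target enzymes did for the controls and 2 for SPRR1A cells. The difference between the classes was not tested.

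The 3 entities whose levels were nearest to AKR1C1 after each was measured from its own mean over the 4 libraries, by Euclidean distance among 9657 others, were IFIT3 (0.143), ISG20 (0.195) and GABARAPL1 (0.303). IFIT3 and ISG20 are interferon-induced genes, and GABARAPL1 encodes a protein of the autophagosome membrane. IFIT3 had a log2 TPM of 4.91 in SPRR1A and 4.93 in DsRed cells of the stable model, and 6.98 in SPRR1A and 7.20 in GFP cells of the transient model. The measure rests on 4 libraries, and it ranks any gene that is about equal within the models and higher in transient cells close to AKR1C1.

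The 11 genes for NRF2 and the proteins that control or partner it were all above the floor. NFE2L2, which encodes NRF2, had a log2 TPM of 6.42 in SPRR1A and 6.24 in DsRed cells of the stable model, and 6.47 in SPRR1A and 6.64 in GFP cells of the transient model. Its differences between the models were 0.40 for the controls and 0.06 for SPRR1A cells. KEAP1 had a log2 TPM of 6.25 in SPRR1A and 6.33 in DsRed cells of the stable model, and 5.92 in SPRR1A and 6.06 in GFP cells of the transient model, so that both transient libraries were lower, by 0.27 for the controls and by 0.33 for SPRR1A cells. NRF2 is controlled largely through its protein, which was not measured here.

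Past 2-fold between the controls were MAFF (1.29), a small MAF partner, BACH1 (1.25), the competing repressor, and SQSTM1 (1.03), which sequesters KEAP1. Of these, MAFF (1.23) also passed for SPRR1A cells, and BACH1 (0.68) and SQSTM1 (0.87) did not. SQSTM1 had a log2 TPM of 8.34 in SPRR1A and 8.25 in DsRed cells of the stable model, and 9.21 in SPRR1A and 9.28 in GFP cells of the transient model. MAFF had a log2 TPM of 4.40 in SPRR1A and 4.50 in DsRed cells of the stable model, and 5.62 in SPRR1A and 5.79 in GFP cells of the transient model. Of the 11 regulators, 7 had both transient values above both stable values, against 30.2% of the entities at a TPM of 5 or more throughout. The median differences were 0.40 for the controls and 0.06 for SPRR1A cells, beside 0.12 and -0.11 for well expressed entities. Between SPRR1A cells and their own control 0 of 11 passed 2-fold in either model, with BACH1 the largest among well expressed genes, at 0.26 for the stable and -0.31 for the transient model.

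A list of 37 further NRF2 targets held 35 genes above the floor, and GSTA4 and CES1 were listed at 0 in all libraries. For the controls, 25 were higher and 10 lower in transient cells with a median difference of 0.40, and for SPRR1A cells 23 were higher and 12 lower with a median of 0.22. In both comparisons the median of the 10 genes was the larger, at 0.78 and 0.75. Past 2-fold were IDH1 (1.13), an isocitrate dehydrogenase that makes NADPH, for the controls, and CYP4F11 in both, which was listed at 0 in both stable libraries and at a log2 TPM of 1.75 in SPRR1A and 1.90 in GFP cells of the transient model. The ferritin subunits store the iron that heme oxygenase releases. FTH1 had a log2 TPM of 11.06 in SPRR1A and 10.95 in DsRed cells of the stable model, and 11.82 in SPRR1A and 11.94 in GFP cells of the transient model, and the FTL values were 10.99, 11.07, 11.87 and 11.98 in the same order. FTL had the largest difference of the list for SPRR1A cells among well expressed genes, at 0.88. Over the 37 genes, 21 had both transient values above both stable values and 9 had both below, against 30.2% and 31.6% of the entities at a TPM of 5 or more throughout. The 37 were not held to that minimum. CYP4F11 and ABCC2, at 0 in both stable libraries, are among the 21, and GSTA4 and CES1 could be in neither count.

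Between SPRR1A cells and their own control 0 of the 37 passed 2-fold. In the stable model 9 were higher and 24 lower with a median of -0.06, beside 0.06 for well expressed entities. How many of all entities were lower there was not counted. ALDH3A1, an aldehyde dehydrogenase, had the largest difference of the list (-0.31). In the transient model 34 were lower, as were 94.1% of well expressed entities, and PIR, which encodes the nuclear protein pirin, was the 1 gene higher (0.43). PIR shares its locus on chromosome X with the read-through gene PIR-FIGF, which was listed at 0 in transient SPRR1A cells and at 3.65 in transient GFP cells. Their summed TPM, an addition made after the data were seen, was 46.0 and 46.7, a log2 difference of -0.02, with the value at the floor taken as a TPM of 0. Taken as a TPM of 1, the log2 difference was 0.01. Neither difference holds if the value at the floor is a failed estimate.

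Of 11 other aldo-keto reductases, 8 were listed at 0 in all libraries and AKR1A1, AKR1B1 and AKR7A2 were above the floor. AKR1B1, aldose reductase, had a log2 TPM of 7.71 in SPRR1A and 7.79 in DsRed cells of the stable model, and 8.06 in SPRR1A and 8.17 in GFP cells of the transient model. AKR7A2, an aflatoxin aldehyde reductase, had 5.12, 5.07, 4.50 and 4.59 in the same order, and was lower in transient cells by 0.49 for the controls and by 0.62 for SPRR1A cells. None of the 3 passed 2-fold in any comparison. The coding sequence of AKR1B10 was 75.3% identical to that of AKR1B1, and 2.0% of its 100-base windows were found in another gene of the family.

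Other stress genes were set beside the 10 genes in the comparisons between the models. Of 12 genes of the unfolded protein and integrated stress responses, the same 4 were more than 2-fold higher in transient cells in both comparisons. The share of well expressed entities was 3.21% for the controls and 1.12% for SPRR1A cells. The 4 genes were ATF3 (3.56 for the controls and 3.33 for SPRR1A cells), DDIT3 (1.93 and 1.55), DNAJB9 (1.81 and 1.36) and HERPUD1 (1.46 and 1.28). ATF3 and DDIT3 are stress-induced transcription factors, and DNAJB9 and HERPUD1 act on misfolded proteins of the endoplasmic reticulum. Of 12 heat shock chaperones 0 passed 2-fold, with medians of 0.02 for the controls and -0.26 for SPRR1A cells. Of 12 metallothioneins, which bind metals, 9 were listed at 0 throughout and 0 passed 2-fold. MT1X was the metallothionein with the largest difference, at 0.63 for the controls and 0.92 for SPRR1A cells. The leukocyte marker CD68, which encodes a lysosomal protein, was higher in transient cells by 0.90 and 0.82, and the other 4 leukocyte markers were at 0. The acinar marker PRSS1 lay between 0.64 and 1.86 and was higher in transient cells by 0.83 and 1.07. The part of these stress and marker genes in the values of the 10 genes was not tested.

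**Figure D4:**
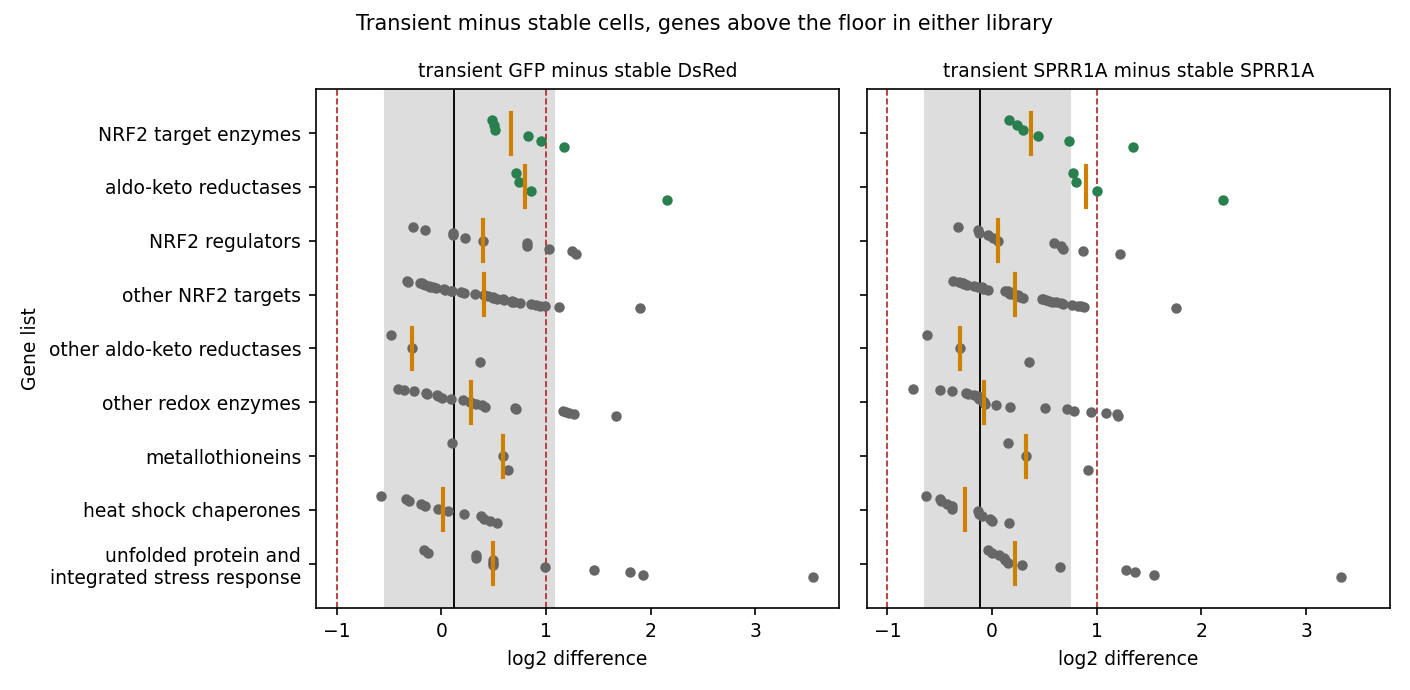
Log2 difference of transient GFP minus stable DsRed cells in the left panel and of transient SPRR1A minus stable SPRR1A cells in the right panel, with 1 point per gene above the floor in either library, grouped by gene list. The 10 genes lie at 0.16 to 2.21, whereas the 12 heat shock chaperones lie on both sides of 0 and ATF3 reaches 3.56 and 3.33.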

How the data were processed

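PK-1 cells were sequenced as 4 paired-end stranded mRNA libraries, 1 per condition. With Strand NGS at default settings, the authors mapped reads to human transcripts (hg38) and deposited log2 TPM per gene, floored at 0. The version of the software and its treatment of reads shared by several genes are not given in the sources used here, and depth in reads is unknown.

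Differences in log2 TPM were computed for 4 comparisons over all 53826 entities. Past 2-fold means a log2 difference above 1 or below -1. Central ranges and centring used well expressed entities, at a TPM of 5 or more in both libraries. With 1 library per condition no test was run. The 10 genes and all lists were chosen with earlier results of these data known. Of the other lists, the text names genes past 2-fold in any comparison and well expressed ones with the largest difference, except SOD3, MT1F, HSPH1, HSPA1B, HSPE1, CDH1 and KRT7, which had the largest differences of their lists in some comparisons, all under 2-fold. It also names the 3 entities nearest to AKR1C1. EPCAM, MUC1, GSTA4, CES1, NFE2L2, KEAP1, FTH1 and AKR1A1 were named beside them after their values were seen, as were the 1.5-fold threshold and the sum of PIR and PIR-FIGF. Alternatives were other pseudocounts, filters, centring and leaving SPRR1A out of the total.

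Positions and promoters came from RefSeq (GRCh38.p14) and coding sequences from GENCODE 44 MANE Select transcripts. Python 3.11.15, numpy 2.4.6, pandas 2.3.3 and matplotlib 3.10.9 were used. The code for the calls was run on simulated data with large known differences, which checks the code and not the calls made here.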

Additional observations from a re-analysis of the deposited data

How the results depend on the processing

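Each condition had 1 library, so leaving out a replicate was not possible. No paired analysis was possible because the groups of each comparison held 1 library each. A fit of transient against stable libraries over both constructs was not run. Across the pseudocounts, filters, centring and the removal of SPRR1A from the total, 273 values of single members kept their side of the 2-fold threshold and 3 lost the 2-fold call. All 3 were of AKR1C2 between transient and stable SPRR1A cells, at 0.97 with 1 added to each TPM, with or without the floor set to 0, and at 0.997 with 0.1 added. Part of the 273 was fixed in advance, since the filters change no value. With all 10 genes above the floor, setting the floor to 0 repeats the values with 1 added. Leaving SPRR1A out of the total left the differences between the controls of the models unchanged. For transient SPRR1A against GFP cells the median of the 10 genes was -0.17 as reported, 0.011 after centring and -0.021 with SPRR1A left out of the total. Under these settings 6 and 4 genes were higher, where 0 were higher as reported, and in the stable model 3 were higher after centring, where 4 were as reported. Between the controls of the models the median was 0.66 after centring. Between the SPRR1A cells it was 0.87 after centring and 0.90 with SPRR1A left out. At 1.5-fold, a threshold added after the data were seen, 7 genes passed between the controls and 6 between the SPRR1A cells, against 2 and 3 at 2-fold. The summed AKR1C1, AKR1C2 and AKR1C3 passed 2-fold between the controls, at 1.02. All 10 genes stayed higher in transient cells under each of these settings, or 9 of 9 where a minimum TPM of 5 left out AKR1B10.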

Other observations

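Among 23 other redox enzymes, 5 were more than 2-fold higher in transient GFP than in stable DsRed cells, against 3.21% of well expressed entities. These were CHAC1 (1.67), which degrades glutathione, SESN2 (1.27), a stress-induced sestrin, TXNIP (1.22), which binds thioredoxin, GLRX (1.19), a glutaredoxin, and GPX3 (1.16), a glutathione peroxidase. The 23 enzymes, unlike the entities, were not held to a TPM of 5 in either comparison, and GPX3 was at a TPM of 3.58 in stable DsRed cells. Between transient and stable SPRR1A cells TXNIP (1.21), SESN2 (1.20) and GLRX (1.09) were more than 2-fold higher, against 1.12% of well expressed entities, and CHAC1 (0.94) and GPX3 (0.71) were not. TXNIP had a log2 TPM of 6.83 in SPRR1A and 6.78 in DsRed cells of the stable model, and 8.03 in SPRR1A and 8.0 in GFP cells of the transient model. The medians of the list were 0.28 for the controls and -0.08 for SPRR1A cells, and 0 of the 23 passed 2-fold between SPRR1A cells and their own control.

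GPX1, a glutathione peroxidase that most cells express, was listed at 0 in all 4 libraries, so a value of 0 in these tables can be a failed estimate. With 1 library per condition, an unknown depth and 3 near copies in the AKR1C cluster, none of the differences above has an error.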
